A study of Mus musculus with 38 samples.

Results

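The widest H3K27me3 domains of wild-type mouse embryonic stem cells (mESCs) numbered 1053 of 43394 stretches marked by H3K27me3 on chromosomes 1 to 19. H3K27me3 had been called in each of 3 IκBα-WT ChIP-seq libraries, bases called in at least 2 of the 3 lists were kept as the WT consensus, touching stretches were joined, and the stretches of 20.0 kb or more were taken as domains. They made up 2.43% of the stretches and 14.1% of the marked bases, or 32.1 of 227 Mb. The domains were chosen by the width of WT H3K27me3 calls, so H3K27me3 values of the WT lists in them are given as a description and without a test.

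ChIP-seq, in which antibody-bound chromatin is sequenced, had been carried out for H3K27me3, H3K4me3, H3K27ac, H3K4me1 and H3K9me3 in ES-E14TG2a mESCs grown in serum/LIF and taken at 0 h. IκBα-WT cells carried the label IkappaBalpha+/+ and the treatment wildtype, and were clones that had received a scrambled guide RNA. IκBα-KO cells were labelled IkappaBalpha-/- and knock-out, and were clones edited with CRISPR-Cas9 at Nfkbia, the gene of the NF-κB inhibitor IκBα. Each mark had 3 WT and 3 KO libraries, 30 of the 38 samples, and the study describes 3 independent clones per genotype, each a line grown from edited cells, so that genotype and clone history cannot be told apart. The other 8 samples were inputs. In the labels H3K27ac carries the antibody of H3K4me1, whereas the study's methods give H3K27ac an antibody of its own, and which was used was not settled here. An input of 1 genotype served all 3 replicates of that genotype, and histone marks do not measure the deletion itself.

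H3K27me3 is trimethylation of lysine 27 of histone H3. It is written by Polycomb repressive complex 2 (PRC2), which in embryonic stem cells occupies CpG islands of genes that act later in development. From these islands the mark can spread over whole gene clusters, the Hox clusters being the best known case. Many of the islands also carry H3K4me3, the mark of promoters, and such promoters are called bivalent. H3K4me1 marks enhancers and the flanks of promoters, H3K27ac marks active enhancers and promoters and sits on the same residue as H3K27me3, and H3K9me3 marks heterochromatin. A ChIP-seq level in a culture averages over cells, so a mark in fewer cells and less mark in each cell cannot be told apart.

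CpG dinucleotides, the feature of DNA that marks these islands, are shown for 5 gene starts inside the domains. Hoxd13 and Hoxa13 lie in Hox clusters that kept H3K27me3 in the KO, Zdbf2 and Gbx2 lie in domains with lower H3K27me3 in the KO, and Rgl3 lies in a domain that lost H3K4me3 calls. Each sequence runs 5′ to 3′ from 250 bases before to 50 bases after the RefSeq start on GRCm38.p6, and capitals mark every CG. The windows are Hoxd13 chr2:74667975-74668274 on the plus strand, Hoxa13 chr6:52260831-52261130 on the minus strand, Zdbf2 chr1:63273019-63273318 on the plus strand, Gbx2 chr1:89931127-89931426 on the minus strand and Rgl3 chr9:21989404-21989703 on the minus strand.
Hoxd13: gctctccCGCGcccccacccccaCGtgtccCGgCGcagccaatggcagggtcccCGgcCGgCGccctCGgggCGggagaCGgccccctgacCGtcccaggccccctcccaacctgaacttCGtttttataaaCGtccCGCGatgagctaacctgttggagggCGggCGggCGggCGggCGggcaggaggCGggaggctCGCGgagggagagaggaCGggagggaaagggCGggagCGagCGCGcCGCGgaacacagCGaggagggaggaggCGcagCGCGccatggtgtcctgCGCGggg
Hoxa13: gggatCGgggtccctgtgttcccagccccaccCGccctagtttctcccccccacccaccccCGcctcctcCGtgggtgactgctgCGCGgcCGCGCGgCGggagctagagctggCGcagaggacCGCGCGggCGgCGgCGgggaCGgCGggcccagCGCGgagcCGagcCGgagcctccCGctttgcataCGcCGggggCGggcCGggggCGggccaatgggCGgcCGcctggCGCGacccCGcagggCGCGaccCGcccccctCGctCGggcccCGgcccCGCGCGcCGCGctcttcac
Zdbf2: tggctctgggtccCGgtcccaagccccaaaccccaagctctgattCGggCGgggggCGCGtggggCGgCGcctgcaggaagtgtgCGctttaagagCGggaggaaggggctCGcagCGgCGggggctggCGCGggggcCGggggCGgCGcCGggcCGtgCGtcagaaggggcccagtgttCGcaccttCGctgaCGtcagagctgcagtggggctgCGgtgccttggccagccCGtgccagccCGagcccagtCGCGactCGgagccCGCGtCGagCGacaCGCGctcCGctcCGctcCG
Gbx2: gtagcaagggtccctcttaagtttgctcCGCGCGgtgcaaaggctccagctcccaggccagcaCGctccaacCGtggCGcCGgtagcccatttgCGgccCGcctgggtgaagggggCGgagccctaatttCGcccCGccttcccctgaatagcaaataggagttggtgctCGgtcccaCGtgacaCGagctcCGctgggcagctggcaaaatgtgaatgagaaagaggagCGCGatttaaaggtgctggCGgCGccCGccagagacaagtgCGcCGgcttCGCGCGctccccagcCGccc
Rgl3: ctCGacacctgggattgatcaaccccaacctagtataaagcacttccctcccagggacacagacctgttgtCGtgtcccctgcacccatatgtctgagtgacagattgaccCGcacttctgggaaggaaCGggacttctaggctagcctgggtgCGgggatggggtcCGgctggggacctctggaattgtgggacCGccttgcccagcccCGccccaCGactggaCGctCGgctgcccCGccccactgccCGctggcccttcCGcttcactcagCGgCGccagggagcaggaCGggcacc

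The Hoxa13 window held 45 CG and the Hoxd13 window 37, counts reached by 2.00% and 5.77% of the 31396 RefSeq gene-start windows on chromosomes 1 to 19. Zdbf2 had 38 CG at the start shown, as many as 5.12% of windows, and 15 at its other RefSeq start, which lies outside the domain. Gbx2 had 27 and Rgl3 17, reached by 16.0% and 32.0% of windows. Of the 31396 windows, 1289 lay in the domains. Their median was 14 CG against 7 in the other windows, 36.1% against 26.7% held 20 or more, and 18.3% against 38.5% held under 5.

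CpG density was high over the whole domains as well. They held 17.0 CpG per kb, against 8.51 over chromosomes 1 to 19, 13.9 in all narrower stretches and 15.6 in narrower stretches of 10 kb or more. The GC content was 49.8% in the domains and 41.9% over the chromosomes. Exons of protein-coding genes covered 10.3% of the domains' bases, introns 43.4%, and 46.3% lay outside coding genes (GENCODE M21, GRCm38). A 5′ end of a protein-coding gene lay in 732 domains, or 69.5%, against 11.3% of narrower stretches. The 732 held the starts of 971 genes. Of the remaining domains 187 lay over gene bodies and 134 touched no coding gene.

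Developmental regulators were dense among the 971 genes. Of 206 listed genes of transcription factor families 134 (65.0%) had their 5′ end in a domain, against 4.67% of the 20807 coding genes on the autosomes. All 39 Hox genes, which set position along the body axis, and all 6 Irx genes were there. Lhx factors followed with 11 of 12, Dlx with 5 of 6, Gata factors of blood, heart and endoderm with 4 of 5, Pax with 7 of 9 and Tbx with 12 of 16. Sox (8 of 18), proneural bHLH (8 of 20) and Fox factors (16 of 41) were less complete. Among secreted ligands, 13 of 19 Wnt genes, 4 of 20 Fgf genes and 4 of 20 Bmp and Gdf genes lay in domains. None of the 11 PRC2 genes or the 76 ribosomal protein genes did.

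Of 14 listed pluripotency genes, Esrrb, Gbx2 and Tbx3 had an annotated 5′ end in a domain. For the marker genes below, the promoter was taken from 5000 bp before to 100 bp after the annotated 5′ end. A call lying wholly further downstream was not counted, so a missing call is not evidence of an unmarked gene start. Of 8 stem cell markers, Pou5f1, Sox2, Zfp42 and Tfcp2l1 had H3K4me3 and H3K27ac calls at the promoter in 6 of 6 libraries and H3K27me3 calls in 0 of 6. Klf4 had the same 2 active marks and H3K27me3 in 2 of 3 WT and 0 of 3 KO lists. Nanog and Dppa4 had H3K27ac in 6 of 6 and no H3K27me3, but H3K4me3 in 1 of 3 WT lists each, and in 3 and 2 of 3 KO lists. Esrrb, an orphan nuclear receptor of naïve pluripotency, had H3K27me3 in 6 of 6 at its annotated 5′ end and neither H3K4me3 nor H3K27ac. Of 5 primitive endoderm markers, Gata6, Gata4, Sox17 and Pdgfra lay in domains and Sox7 did not, and of 4 fibroblast markers Col1a1 and Twist1 did and Col1a2 and Thy1 did not. All 9 had H3K27me3 in 6 of 6 libraries. Gata6, Pdgfra, Twist1, Sox7 and Thy1 also had H3K27ac in 6 of 6, and Sox7 and Thy1 had H3K4me3 in 6 of 6 and Twist1 in 5 of 6.

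The 1053 domains had a median width of 26.4 kb, 348 reached 30 kb, 76 reached 50 kb and 8 reached 100 kb. The widest was the Hoxc cluster at chr15:102893201-103072800, 179.6 kb with the starts of 9 Hox genes. Hoxa (chr6:52146401-52285000, 138.6 kb), Hoxb (chr11:96249401-96387000, 137.6 kb) and Hoxd with Evx2 (chr2:74642401-74773800, 131.4 kb) came next. After them stood Cdkn1c, an imprinted inhibitor of cyclin-dependent kinases, with Slc22a18 (chr7:143354401-143474800, 120.4 kb), and Nfix with Lyl1 (chr8:84700201-84820200, 120.0 kb). The other members of the widest 10 were Nkx1-1 (chr5:33387201-33492600, 105.4 kb), the Pcdhg protocadherins (chr18:37669201-37769800, 100.6 kb), Lmx1b, a LIM-homeobox factor of limb and neuron patterning (chr2:33553001-33652000, 99.0 kb), and a stretch without a coding gene at chr5:120203801-120297200 (93.4 kb).

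The width limit fell in a dense part of the distribution. At exactly 20.0 kb stood 26 domains, among them Des (chr1:75352001-75372000), Spag6 (chr2:18686001-18706000) and Oxt with Avp (chr2:130569201-130589200). Just outside, at 19.8 kb, stood 22 stretches, among them those of Mfsd4a, Lgr5 and Pitpnm3. Des, Spag6 and Oxt kept 93.0%, 99.0% and 94.0% of their bases in the KO consensus, the bases called in at least 2 of 3 KO lists, and Mfsd4a, Lgr5 and Pitpnm3 kept 100%, 88.9% and 100%.

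Domains lay near each other. Another domain was within 10 kb of 159 and within 50 kb of 353, and the median gap was 130 kb. Chromosomes 2, 8 and 11 held the most, with 107, 100 and 96, and chromosomes 3 and 14 the fewest, with 21 and 22. In 3 segments, of distal chromosome 2, of most of chromosome 8 and of distal chromosome 12, the KO and WT inputs differed. The segments held 10, 91 and 20 domains, which ran over chr2:165090201-170503800, chr8:46203601-124798200 and chr12:103226801-118858200. On the log2 scale the domains' H3K27me3 input density was higher in KO by a median of 0.62 on chr2 and 0.27 on chr8, and fell by 0.83 on chr12, against 0.17 (SD 0.10) in the 932 domains outside. Results are therefore given with and without these segments.

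Wider stretches were also more densely marked in the lists that defined them. The median over stretches was 28.9 WT H3K27me3 reads per kb under 5 kb, 40.7 at 10 to 20 kb, 57.5 at 20 to 30 kb, 62.0 at 30 to 50 kb, 68.5 at 50 to 100 kb and 128.6 at 100 kb or more. The KO lists gave 29.0, 42.5, 57.9, 62.4, 71.3 and 119.4 in the same order. Gene starts became more frequent in the same order, with 4.05% of stretches under 5 kb, 67.1% at 20 to 30 kb, 83.8% at 50 to 100 kb and 100% of the 8 widest holding one. The share with H3K4me3 called in at least 2 WT lists was 5.68%, 76.5%, 88.2% and 100% in these 4 classes. Across the 1053 domains Spearman's rho was 0.72 between CpG per kb and WT read density and 0.23 between width and density, as a description, since neighbouring domains and shared libraries make these points dependent.

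Domains that held a listed regulator stood apart in the same lists. The 96 of them had a median of 91.8 WT reads per kb, 20.3 CpG per kb and 32.3 kb in width, against 57.5, 16.0 and 25.6 in the other 957. H3K4me3 was called in at least 2 WT lists in 99.0% of them and in 76.6% of the others. Domains with any gene start had a median of 66.4 reads per kb and domains without had 45.4.

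H3K27me3 stayed over most of the domains in the KO. The WT lists, which chose the domains, covered 93.9%, 97.7% and 98.0% of their bases, and the KO lists covered 94.2%, 93.7% and 93.7%. WT replicate 1 lay among the KO values and the other WT replicates above them. The KO consensus held 95.1% of the bases, and 95.9% outside the segments. Of the 1053 domains, 895 kept 90% or more, 143 kept between 50 and 90%, and 15 kept less than 50%. Of these 15, 11 lay in the chr12 segment and 1 in the chr2 segment, so 3 lay outside. Domains with a gene start accounted for 3 of the 15 and those without for 12.

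Choosing the domains from 2 WT lists and reading the WT list left out gave a comparison that the choice did not fix. WT replicate 1 covered 94.97% of the 748 domains that replicates 2 and 3 defined, less than the KO lists with 95.8 to 96.3%. WT replicate 2 covered 98.3% of 593 domains and WT replicate 3 98.6% of 572, above the KO lists with 96.9 to 97.1% and 97.1 to 97.3%. The direction thus depended on which WT library was held out, both over all domains and outside the segments. With domains chosen from 2 KO lists, the KO list left out covered 97.1 to 98.1% of their bases, and each WT list covered less, 89.7 to 94.4%. Outside the segments these values were 97.3 to 98.0% and 93.5 to 96.6%. WT replicate 1 was the lowest in each case.

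**Figure D1:**
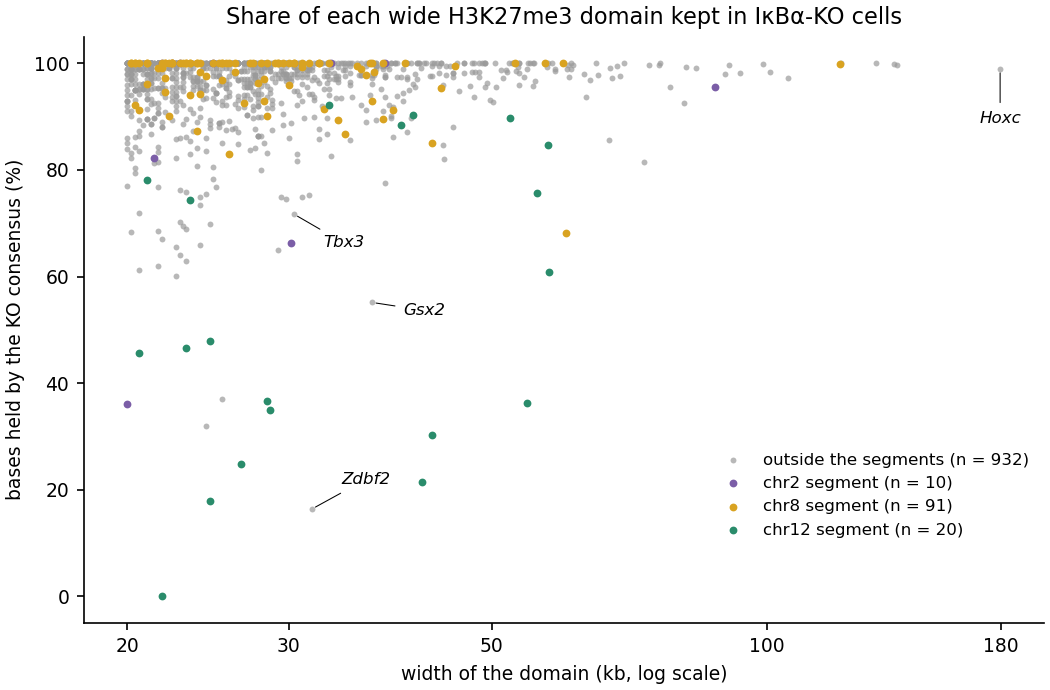
Share of each domain's bases in the KO H3K27me3 consensus (y axis, percent) against its width (x axis, kb, log scale), 1 point per domain, with the 932 domains outside the segments in grey and those in the chr2 (10), chr8 (91) and chr12 (20) segments in colour. Most points lie above 90%, the chr12 points reach down to 0, and Zdbf2 at 16.4% lies lowest outside the segments.

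Zdbf2, an imprinted gene, was the domain outside the segments that kept least. The domain at chr1:63247801-63279600, 31.8 kb, was covered to 98.1%, 100% and 99.4% in the WT lists and to 23.3%, 18.2% and 14.5% in the KO lists, and 16.4% lay in the KO consensus. Its H3K27me3 density was 68.3, 69.1 and 73.3 reads per kb in WT and 37.3, 35.7 and 38.6 in KO, so the groups were well apart, while the KO to WT input ratio was 0.30 on the log2 scale, the opposite direction. The domains next in order held no gene start. A stretch at chr19:56668601-56693000 kept 32.0% (WT lists 74.6%, 96.7% and 92.6%, KO lists 43.4%, 40.2% and 27.05%), and one in the body of Sorcs2, a sortilin receptor gene, at chr5:36349001-36374400 kept 37.0% (95.3%, 87.4% and 100% against 58.3%, 48.0% and 26.8%). In both, every KO list covered less than every WT list.

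Gsx2, a homeobox factor of the forebrain, followed with 55.1% of chr5:75059601-75096600, although its H3K27me3 density where called was 68.2, 71.0 and 70.5 reads per kb in WT and 66.1, 81.1 and 80.4 in KO. The Gsx2 groups overlapped in density and did not in coverage (90.3%, 89.7% and 96.8% against 69.7%, 52.4% and 55.1%). A stretch in the body of Col13a1, a collagen gene, at chr10:61865001-61887600 kept 60.2%.

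In the chr12 segment, where the KO input was also lower, the stretch chr12:112423001-112444800 had no base in the KO consensus, and the KO lists covered 0, 32.1% and 0 of it. Stretches in the bodies of Ptprn2 (chr12:117235801-117260400) and Bcl11b (chr12:107892601-107934600) kept 17.9% and 21.4%, and chr12:104570601-104597200 kept 24.8%. Over the 20 domains of that segment 57.7% of bases were kept, against 97.0% in the chr8 segment and 90.5% in the chr2 segment.

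Some domains reached further in the KO lists. The KO consensus ran beyond domain edges over 3.94 Mb, of which 2.47 Mb already lay in narrower parts of the WT consensus, and over 3.07 Mb outside the segments. The median was 1.0 kb per domain, 161 domains gained more than 10 kb and 276 gained none. In 21 places a KO stretch joined domains that were separate in WT, 44 domains in all. The Hoxc domain was joined to its neighbours chr15:103092601-103134200 and, in the body of Smug1, chr15:103134801-103161200 by a KO stretch from 102901801 to 103151400. The Cdkn1c domain was joined to Phlda2, an imprinted growth regulator at chr7:143480801-143503200, and to chr7:143298201-143353800 in the body of Kcnq1 by a KO stretch from 143298201 to 143505400.

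The same rule applied to the KO lists gave 1371 domains over 42.9 Mb, the widest of 249.6 kb. Of their bases 89.5% lay in the WT consensus, and 93.1% outside the segments. Of the 1371, 542 touched none of the 1053 WT domains and 2 touched no WT stretch at all. The KO lists called more H3K27me3 sequence in total, 276, 275 and 265 Mb, against 213, 257 and 257 Mb in WT, and the part of the total called sequence in the count of wide KO domains was not tested.

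H3K27me3 read density over all domains overlapped between the genotypes. It was 66.7, 68.2 and 68.0 reads per kb of called sequence in WT (67.6 ± 0.81, SD, n = 3) and 67.5, 71.1 and 66.4 in KO (68.3 ± 2.45, SD, n = 3), and the groups overlapped. Over all called sequence the density was 38.4 to 41.6 in WT and 38.1 to 39.5 in KO. Single domains ranged from 28.3 to 193 reads per kb in WT with a median of 59.5, and the KO median was 60.2. Outside the segments the log2 ratio of KO to WT density had a median of 0.01 and an SD of 0.17 over domains, and ran from −0.92 to 1.20.

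**Figure D2:**
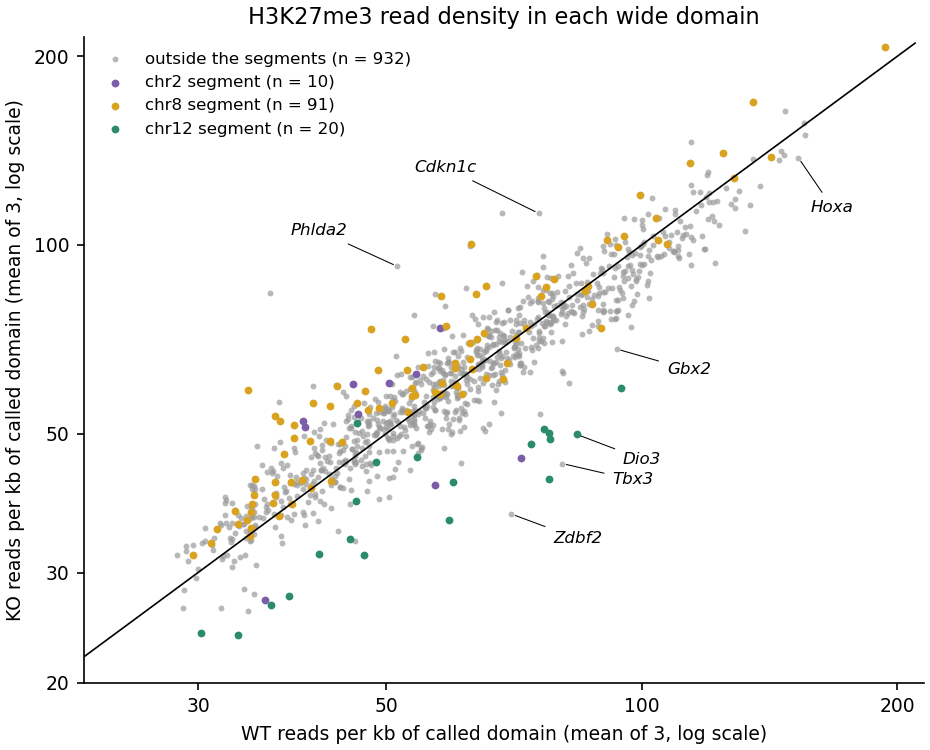
Mean H3K27me3 reads per kb of called sequence in the 3 KO lists (y axis, log scale) against the 3 WT lists (x axis, log scale), 1 point per domain, with the line of equality. Domains follow the line, with Cdkn1c and Phlda2 above it and Zdbf2, Tbx3 and Dio3 below. The KO value of Phlda2 has an SD of 22.3 over 3 libraries and can include reads of a call joined to Cdkn1c.

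ChIP reads were then fitted with edgeR over all called regions of a mark, with the length called in each library as an offset, and regions lying to 50% or more in a domain were read out. For H3K27me3 the fit serves here as a description, since WT H3K27me3 calls chose the domains. Of 861 such regions 75 lay under a Benjamini-Hochberg adjusted p of 0.05 in edgeR's quasi-likelihood test, 32 higher and 43 lower in KO, against 2.73% of all 18523 regions tested (1.7% higher and 1.03% lower). Outside the segments they were 45 of 770, 19 higher and 26 lower, against 1.53% (0.701% and 0.827%). Without WT replicate 1 the 75 became 125, 29 higher and 96 lower, and without any 1 of the other libraries 43 to 51. Nothing is read from these shares. None of the 75 reached a 2-fold change in this fit. It compares density over the bases called in each library, so bases whose call was lost, as at Zdbf2, do not enter it.

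The 3 H3K27me3 regions named as higher in KO outside the segments, by their rank in the fit, lay near each other on distal chromosome 7. In the body of Kcnq1 (chr7:143124601-143218000) the WT libraries had 60.4, 63.6 and 63.5 reads per kb and the KO libraries 99.1, 104 and 95.5, a log2 fold change of 0.66 ± 0.06 (SE). The region of Cdkn1c, Slc22a18 and Phlda2 (chr7:143298001-143505400) had 67.9, 71.1 and 72.5 in WT and 109, 114 and 105 in KO, 0.63 ± 0.06. In the body of Osbpl5 (chr7:143686801-143747200) the change was 0.45 ± 0.06. No KO library overlapped a WT library in these 3 regions. The KO to WT input ratios were 0.11, 0.13 and 0.22 on the log2 scale, within 1 SD of the median of 0.17 over domains outside the segments.

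The 3 named as lower outside the segments lay at Zdbf2, Tbx3 and Cdkn2a. The Zdbf2 region had a log2 fold change of −0.92 ± 0.08 (SE). Tbx3, a T-box factor that also acts in naïve pluripotency, had 70.6, 77.0 and 72.0 reads per kb in WT and 43.0, 40.7 and 46.5 in KO over chr5:119635401-119679400, a log2 fold change of −0.76 ± 0.08. Cdkn2a and Cdkn2b, cell-cycle inhibitors and classical Polycomb targets, had 70.5, 75.8 and 80.5 in WT and 52.9, 53.1 and 55.1 in KO over chr4:89264401-89316800, −0.50 ± 0.07. The groups were apart in all 3, with input ratios of 0.30, 0.28 and 0.08. In the chr12 segment the region of Dio3, an imprinted deiodinase, had −0.76 ± 0.06, with an input ratio of −0.86.

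Among the 10 widest, the KO consensus held 99.0% of Hoxc, 99.7% of Hoxa, 99.9% of Hoxb and 100% of Hoxd, and the density of H3K27me3 was somewhat lower in the fit at each. Hoxa had 142, 159 and 158 reads per kb in WT and 135, 141 and 137 in KO. Hoxd had 123, 143 and 147 in WT and 124, 127 and 122 in KO. The fitted log2 changes were −0.17 for Hoxa, −0.09 for Hoxb, −0.06 for Hoxc and −0.13 for Hoxd. Every KO library lay below every WT library at Hoxa, and the groups overlapped at Hoxc and Hoxd. Nkx1-1 (0.00), Nfix (−0.01), Lmx1b (0.10), Pcdhg (−0.15) and the gene-free stretch on chr5 (0.18) had log2 changes on either side of 0. At Pcdhg (82.0, 87.3 and 85.5 against 75.8, 77.4 and 78.1 reads per kb) and at the gene-free stretch (49.8, 51.1 and 50.6 against 56.7, 59.9 and 55.6) the groups did not overlap.

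The 4 other marks inside the domains had no part in choosing them. Over the domains' bases H3K4me1 calls were common, H3K27ac intermediate, and H3K4me3 and H3K9me3 rare. At least 2 WT lists had an H3K4me1 call in 1034 domains (98.2%), an H3K27ac call in 884 (84.0%), an H3K4me3 call in 828 (78.6%) and an H3K9me3 call in 249 (23.6%). For the library comparisons exact permutation tests were two-sided and went through all 20 ways to draw 3 libraries from 6. The smallest p they can give is 0.1, so none could pass 0.05. The adjusted values below are Benjamini-Hochberg over 8 comparisons, 4 marks with and without the segments.

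H3K4me1 covered less of the domains in KO. It covered 56.4%, 56.5% and 56.6% of bases in WT and 53.6%, 52.6% and 52.1% in KO (56.5 ± 0.10 against 52.8 ± 0.77, SD, n = 3 each, exact permutation p = 0.1, adjusted 0.16). Every KO library lay below every WT library. Outside the segments the means were 57.3% and 52.7% with the same p, while in the segments they were 50.5% and 53.2%, the other direction, where inputs differed. Over all called sequence H3K4me1 covered 482 Mb in WT and 475 Mb in KO on average, so the share of its calls that lay in domains was 3.76% and 3.56%.

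H3K27ac moved in a way that depended on the segments. It covered 29.8%, 28.4% and 30.1% in WT and 30.2%, 32.7% and 32.4% in KO (29.4 ± 0.89 against 31.7 ± 1.38, SD, n = 3 each, exact permutation p = 0.1, adjusted 0.16). Outside the segments the means were 29.9% and 30.7% and the groups overlapped (exact permutation p = 0.4, adjusted 0.4), and in the segments they were 26.0% and 39.7%. H3K27ac calls covered 382 Mb in WT and 411 Mb in KO over the autosomes.

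H3K4me3 covered 4.03%, 3.58% and 4.40% in WT and 3.16%, 3.83% and 3.83% in KO, and the groups overlapped (exact permutation p = 0.4, adjusted 0.4). Its calls over the autosomes covered 17.8 Mb in WT and 20.4 Mb in KO on average, with overlap. The share of these calls that lay in domains was 7.20% in WT and 5.66% in KO, and 6.51% and 5.07% outside the segments. In that share every KO library lay below every WT library. In the domains lay 2018 ± 136 H3K4me3 peaks in WT and 1826 ± 172 in KO (SD, n = 3 each, exact permutation p = 0.3), with a median fold enrichment of 5.72 in both. Peaks over the whole lists had medians of 7.03 to 7.76 in WT and 6.64 to 7.11 in KO, so the median peak in domains was below that of every list. H3K9me3 covered 2.92%, 2.65% and 2.87% in WT and 2.62%, 1.94% and 2.41% in KO, all KO libraries lower (exact permutation p = 0.1, adjusted 0.16), while H3K9me3 calls over the autosomes covered 190 Mb in WT and 170 Mb in KO.

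**Figure D3:**
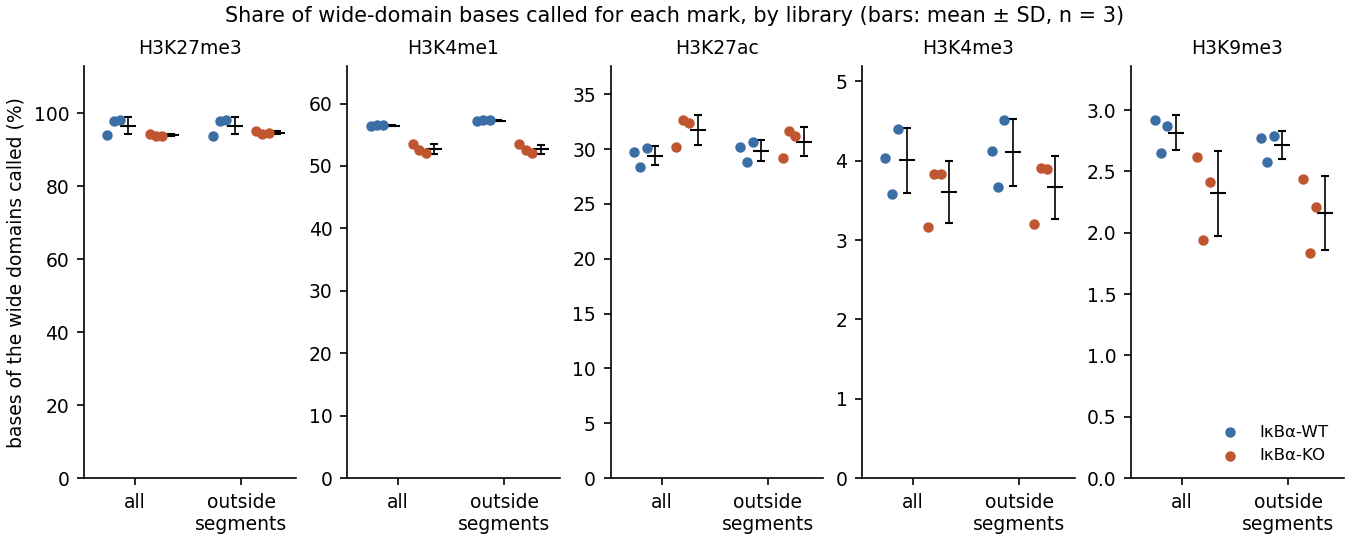
Share of domain bases covered by calls of each mark (y axis, percent, 1 panel per mark) in the WT and KO libraries, 1 point per library with mean ± SD (n = 3), for all domains and for those outside the segments. H3K4me1 is lower in every KO library in both sets, and the H3K27ac difference shrinks outside the segments.

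Domain by domain, a mark was counted as apart when all 3 KO lists covered more, or all 3 less, than all 3 WT lists, and the same count over WT stretches of every width with a call gives the background. H3K4me1 was lower in 268 and higher in 88 of 1046 domains, 25.6% and 8.41%, against 9.13% and 3.78% of all stretches. Outside the segments it was lower in 247 and higher in 31 of 928, against 8.84% and 2.3%. H3K27ac was higher in 172 and lower in 128 of 962 domains (background 9.85% and 5.16%), and higher in 107 and lower in 108 of 848 outside the segments (7.88% and 4.61%). H3K4me3 was higher in 52 and lower in 170 of 892 (9.18% and 12.8%), and 34 and 151 of 802 outside (8.59% and 13%). H3K9me3 was higher in 20 and lower in 38 of 384 (2.51% and 5.8%), and 12 and 32 of 320 outside (1.89% and 5.69%). The stretches behind the backgrounds are mostly narrower, and the part of width in the gap was not tested.

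H3K27ac went different ways in domains of different gene content, a contrast that was chosen after values had been seen. In the 90 domains outside the segments with a listed regulator it covered 34.5%, 33.7% and 35.4% in WT and 26.6%, 28.7% and 29.2% in KO (34.5 ± 0.85 against 28.2 ± 1.39, SD, n = 3 each), lower in 27 domains and higher in 2. In the 267 without a gene start it covered 25.2%, 25.0% and 26.7% in WT and 27.8%, 30.7% and 30.2% in KO (25.6 ± 0.90 against 29.6 ± 1.55), higher in 41 and lower in 19. The groups were apart in both classes. An H3K27ac call was present in 90 domains of the first class and 227 of the second. Of all 848 domains outside the segments with a call, 12.6% were higher and 12.7% lower. Of stretches of every width 7.88% were higher and 4.61% lower. The difference between the classes moved by −10.3 percentage points from WT to KO (exact permutation p = 0.1 over libraries, the smallest possible, adjusted 0.2 over 4 marks).

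H3K4me1 was lower in KO in both classes, by more over the regulators. It covered 67.2% ± 0.46 in WT and 60.2% ± 0.54 in KO over the 90 regulator domains, lower in 46 and higher in 1, and 47.3% ± 0.13 and 44.4% ± 0.38 over the 267 without a gene start, lower in 53 and higher in 18. Of all 928 domains outside the segments with a call, 26.6% were lower and 3.34% higher, and of stretches 8.84% and 2.3%. The difference between the classes moved by −4.08 points (exact permutation p = 0.1, adjusted 0.2). For H3K4me3 it moved by −0.53 points and for H3K9me3 by 0.47 points (exact permutation p = 0.3 for each, adjusted 0.3). Domains with other gene starts, 555 in number, had H3K27ac at 30.3% in WT and 31.4% in KO and H3K4me1 at 59.2% and 54.5%. Their H3K4me1 lay between these classes in both genotypes. Their H3K27ac lay between them in WT and above both in KO.

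**Figure D4:**
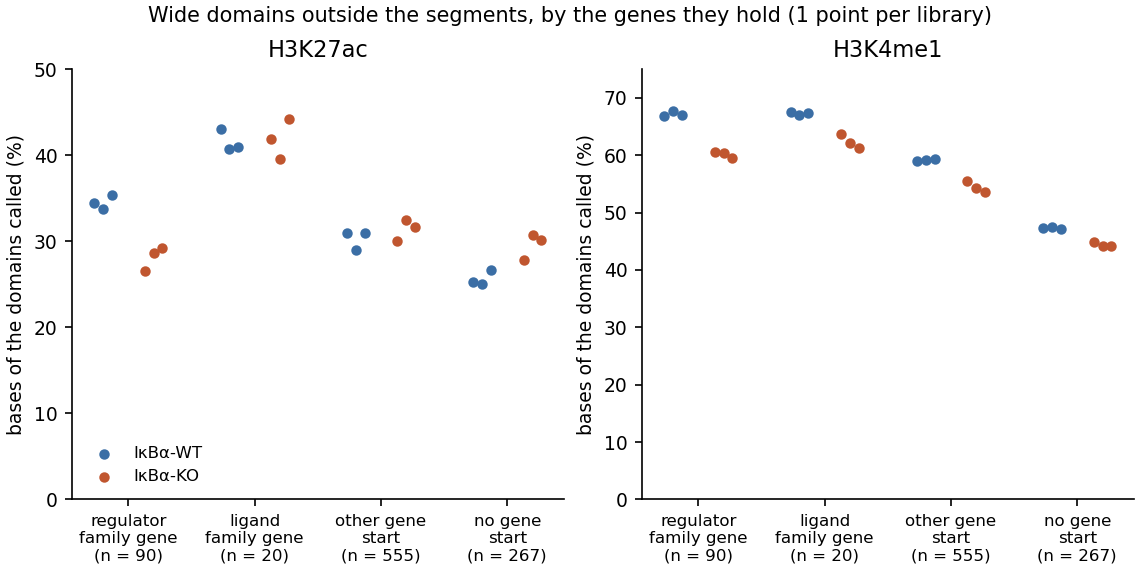
Share of bases covered by H3K27ac and H3K4me1 (y axis, percent) in domains outside the segments, by what they hold: a listed regulator (n = 90), a ligand (n = 20), another gene start (n = 555) or no gene start (n = 267), 1 point per library. H3K27ac is lower in KO over regulators and higher over domains without a gene start, and H3K4me1 is lower in KO in these 4 classes.

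The Hox clusters gave the largest family difference in H3K27ac among the regulators. Hoxc was covered to 46.0%, 48.1% and 50.1% in WT and to 23.2%, 29.0% and 31.0% in KO. Hoxa had 49.8%, 43.7% and 52.2% in WT and 21.8%, 33.0% and 30.2% in KO. Hoxb had 64.2%, 59.2% and 62.6% against 32.6%, 42.7% and 45.5%, and Hoxd 41.7%, 46.1% and 48.1% against 17.5%, 31.4% and 31.2%. In each cluster all 3 KO libraries lay below all 3 WT libraries, KO replicate 1 lowest. Over the 4 clusters the mean was 50.8% ± 2.02 in WT and 30.6% ± 5.89 in KO (SD, n = 3).

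H3K4me1 over the Hox clusters followed the same direction with a smaller step. Hoxc had 73.5%, 78.0% and 74.6% in WT and 67.5%, 64.1% and 64.1% in KO, and Hoxb 93.6%, 92.3% and 90.3% against 82.8%, 84.0% and 83.1%. Hoxa and Hoxd showed the same order without overlap, and over the 4 clusters the mean went from 84.6% ± 0.75 to 76.5% ± 1.22. H3K4me3 over the 4 clusters was 4.96% in WT and 4.37% in KO, lower in 1 of 4.

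**Figure D5:**
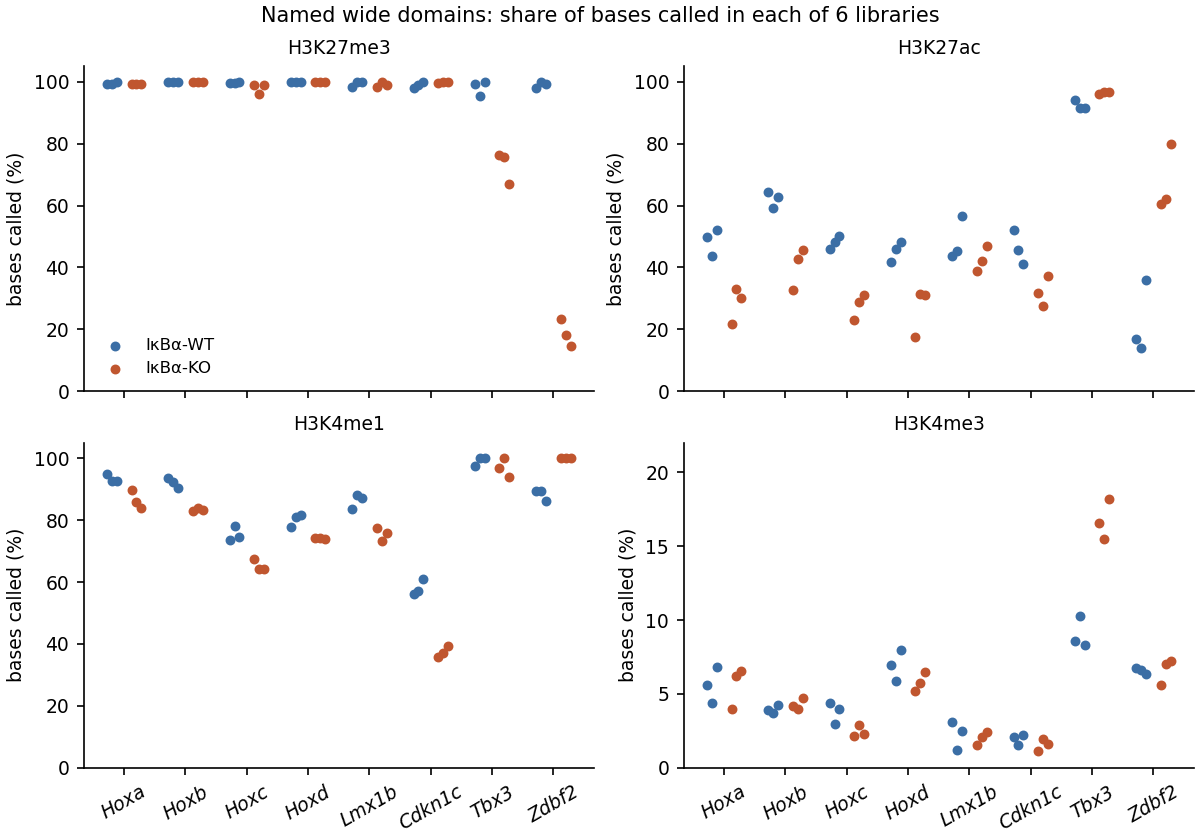
Covered share of 8 named domains (Hoxa, Hoxb, Hoxc, Hoxd, Lmx1b, Cdkn1c, Tbx3 and Zdbf2) by H3K27me3, H3K27ac, H3K4me1 and H3K4me3 (y axis, percent, 1 panel per mark), 1 point per WT or KO library. The 4 Hox clusters stay covered by H3K27me3 while their H3K27ac and H3K4me1 points lie lower in KO, and Zdbf2 loses H3K27me3 while its H3K27ac points lie higher.

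Without the 4 Hox clusters, 86 regulator domains outside the segments remained. H3K27ac covered 31.5% ± 0.64 of them in WT and 27.7% ± 0.59 in KO (SD, n = 3), lower in 23 and higher in 2, and H3K4me1 64.0% ± 0.40 and 57.1% ± 0.47, lower in 42 and higher in 1. By family, a domain being counted under each family it holds, the KO mean of H3K4me1 was below the WT mean in 13 of 13 regulator families and that of H3K27ac in 11 of 13. H3K4me1 was also lower over all domains outside the segments, at 57.3% in WT and 52.7% in KO.

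The POU factors, regulators of neural and other lineages, had the largest H3K4me1 step, from 66.2% ± 0.24 to 54.3% ± 1.24 over 5 domains, lower in 4, and H3K27ac went from 30.2% ± 2.46 to 21.7% ± 2.48, lower in 3. Forkhead factors went from 67.0% ± 1.85 to 57.6% ± 0.99 in H3K4me1 over 12 domains, lower in 8. The Dlx homeobox factors of jaw and forebrain went from 48.5% ± 1.84 to 36.9% ± 3.49 in H3K27ac over 3 domains. Lhx factors had H3K4me1 lower in 6 of 11 domains, Tbx factors in 6 of 12 and Pax factors in 4 of 7, beside 26.6% of all domains with a call outside the segments and 8.84% of stretches. Irx and proneural bHLH domains did not share the H3K27ac direction, at 29.7% and 30.7%, and 20.9% and 21.1%.

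Ligand domains were less uniform. Wnt domains had H3K4me1 at 71.2% ± 1.18 in WT and 63.9% ± 0.92 in KO, lower in 5 of 12 and higher in 0. The 4 Fgf domains had 73.1% ± 2.97 and 74.2% ± 2.30. In the 4 Bmp and Gdf domains H3K27ac was 18.9% ± 3.49 in WT and 27.7% ± 0.80 in KO.

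Read density gave a smaller picture than covered length. Of 1467 H3K4me1 regions in domains 130 passed edgeR's test at an adjusted p of 0.05, 55 higher and 75 lower in KO, against 5.79% of all regions (4.13% higher and 1.66% lower). Outside the segments 15 were higher and 55 lower of 1353, against 4% (2.64% and 1.37%). With library totals alone in place of TMM scaling, 44 were higher and 108 lower, and without KO replicate 3 50 were higher and 42 lower. In the segments 35 of 35 calls were higher on chr8, 0 of 17 on chr12 and 5 of 8 on chr2, where the median input ratios of the domains were 0.44, −1.05 and 0.40.

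H3K4me1 fell at the Hox clusters in this test. Over Hoxd (chr2:74653001-74742200) the density was 105, 103 and 106 reads per kb in WT and 89.3, 89.7 and 88.1 in KO, a log2 change of −0.19 ± 0.02 (SE, edgeR adjusted p = 1.1e-05). Over Hoxc (chr15:102945201-103023000) it was 102, 106 and 104 against 88.4, 90.7 and 84.8, −0.20 ± 0.02 (edgeR adjusted p = 1.1e-04). The KO libraries lay below the WT libraries in both, and the KO to WT input ratios were −0.09 and −0.11. Of 18 H3K4me1 regions in the 4 clusters, 6 passed lower and 0 higher, with a region in Hoxa at −0.13 ± 0.02 (edgeR adjusted p = 2.7e-04) and 1 in Hoxb at −0.15 ± 0.02 (edgeR adjusted p = 0.0012).

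At Cdkn1c (chr7:143431001-143450200) H3K4me1 density was 106, 100.1 and 106 in WT and 80.4, 77.5 and 81.6 in KO, −0.34 ± 0.04 (edgeR adjusted p = 2.7e-04), beside the higher H3K27me3 there. H3K4me1 covered 56.0%, 57.1% and 61.0% of the Cdkn1c domain in WT and 35.9%, 37.2% and 39.4% in KO. H3K27ac covered 51.99%, 45.5% and 41.0% against 31.7%, 27.6% and 37.2%, and an H3K27ac region at chr7:143429001-143448800 fell by 0.31 (log2, edgeR adjusted p = 0.033). The Cdkn1c groups did not overlap in these marks.

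H3K4me1 rose at 3 named places outside the segments. At Slc6a7, Cdx1 and Pdgfrb (chr18:60999001-61061600), of which Cdx1 is a homeobox factor of the posterior body, it went from 77.3, 74.8 and 76.2 to 87.7, 86.6 and 83.8 reads per kb, 0.22 ± 0.03 (edgeR adjusted p = 8.9e-05). At Zdbf2 (chr1:63233401-63284800) it went from 72.5, 75.8 and 75.4 to 85.0, 84.3 and 84.4, 0.22 ± 0.03 (edgeR adjusted p = 1.3e-04). In the body of Col13a1 the change was 0.27 ± 0.05 (edgeR adjusted p = 0.0071). Zdbf2 and Col13a1 were also among the 5 domains outside the segments that kept least H3K27me3. In the chr12 segment the smallest adjusted p was that of Tnfaip2 (chr12:111420401-111452000), −0.72 ± 0.04 (edgeR adjusted p = 1.8e-08), with an input ratio of −1.04.

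The H3K27ac count depended on which regions were read as lying in a domain. Of 661 regions lying to 50% or more in a domain 38 passed edgeR's test, 19 higher and 19 lower, against 12.9% (8.29% higher and 4.59% lower). Where an overlap of 1 bp sufficed, 130 of 986 passed, 100 higher and 30 lower. Without KO replicate 2 the 38 were 22 and without WT replicate 2 they were 25. Outside the segments they were 27 of 628, 10 higher and 17 lower, against 11.3% (6.82% and 4.53%). Without TMM scaling 13 were higher and 68 lower, so the split between directions depended on the scaling. Over the Hox clusters 1 of 20 regions passed, in Hoxc (chr15:102995001-103013200) with −0.30 ± 0.07 (edgeR adjusted p = 0.015), and 14 of 20 had a log2 change below 0. The lower covered share of the Hox clusters was thus accompanied by a passing fall in density where calls remained in 1 region only.

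Tbx3 had the smallest adjusted p among H3K27ac gains outside the segments. Over chr5:119653601-119699400 the density was 74.0, 75.9 and 81.6 reads per kb in WT and 93.2, 92.5 and 81.7 in KO, 0.20 ± 0.03 (edgeR adjusted p = 7.7e-04), and KO replicate 3 lay next to WT replicate 3. A domain in the body of Gad1, which makes the transmitter GABA, held most of a region that began further upstream, at chr2:70547201-70576200. There the density was 49.1, 47.2 and 50.6 against 62.3, 63.8 and 55.4, 0.30 ± 0.05 (edgeR adjusted p = 0.0016). A region at chr17:27223801-27250200, which lay mostly in a domain without a coding gene, rose by 0.28 ± 0.04 (edgeR adjusted p = 0.0013).

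H3K27ac fell at Tmem54 and Hpca (chr4:129102201-129115800) from 54.3, 61.7 and 66.0 to 46.1, 44.1 and 41.6 reads per kb, −0.47 ± 0.08 (edgeR adjusted p = 0.0019), where the input ratio was −0.32. It fell at Onecut3, a neural homeobox factor (chr10:80481401-80508400), from 58.8, 55.0 and 55.5 to 48.6, 46.2 and 41.3, −0.32 ± 0.06 (edgeR adjusted p = 0.0034), with an input ratio of −0.23. The fall at Fam83h (chr15:75985801-76020200), −0.15 ± 0.03 (edgeR adjusted p = 0.013), was lost without KO replicate 1 or without KO replicate 3 (adjusted p = 0.051 and 0.054). In the chr8 segment Nfix rose by 0.38 ± 0.03 (edgeR adjusted p = 2.6e-06), with an input ratio of 0.43.

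H3K9me3 passed in 1 of 95 regions, lower in KO, against 0.387% of all (0.154% higher and 0.233% lower), and in 1 of 86 outside the segments, against 0.306% (0.116% and 0.19%). An unadjusted p under 0.05 was reached by 19 of the 95. The region lay at Grb10, an imprinted adaptor of growth factor receptors (chr11:12002001-12035800), with 50.5, 44.3 and 44.7 reads per kb in WT and 36.4, 34.3 and 28.6 in KO, −0.49 ± 0.09 (edgeR adjusted p = 0.041). The Grb10 call was lost when any WT replicate, KO replicate 1 or KO replicate 3 was left out, with adjusted p from 0.13 to 0.17, and remained without KO replicate 2.

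H3K4me3 has no read counts here, and the named domains are those with the most bases gained or lost and no overlap between groups. Tbx3 (chr5:119649001-119679400) was covered to 8.6%, 10.3% and 8.3% in WT and to 16.5%, 15.5% and 18.2% in KO, while its H3K27me3 density went from 81.0, 88.8 and 72.0 to 44.8, 43.1 and 46.5 reads per kb. Meis2, a homeobox partner of Hox factors (chr2:116060201-116080400), went from 5.1%, 7.1% and 9.0% to 12.6%, 19.8% and 19.5%, with H3K27me3 at 94.6, 99.0 and 100.1 against 81.5, 78.1 and 84.6. Gbx2, a homeobox factor of naïve pluripotency and hindbrain (chr1:89916001-89939000), went from 16.9%, 10.5% and 15.7% to 19.5%, 20.6% and 24.7%, with H3K27me3 at 86.9, 95.4 and 98.1 against 69.4, 69.6 and 65.7. In these 3 domains every KO library had more H3K4me3 and a lower H3K27me3 density than every WT library.

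H3K4me3 calls were lost over Hoxc, which went from 4.4%, 3.0% and 4.0% to 2.2%, 2.9% and 2.3%. Rgl3, a regulator of Ral signalling (chr9:21966001-21996200), went from 8.2%, 5.3% and 8.3% to 0.0%, 1.7% and 1.0%. In both, every KO library lay below every WT library. The fitted H3K27me3 change was 0.03 at Rgl3. In the segments Pou4f2 (chr8:78417201-78451800) had more H3K4me3 bases in KO, and Sp8 (chr12:118834801-118858200) and a stretch in the body of Begain (chr12:109029001-109062200) had fewer.

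At the 5 domains outside the segments that kept least H3K27me3, H3K27ac covered more in KO. Zdbf2 had 17.0%, 13.8% and 35.8% in WT and 60.4%, 62.3% and 79.9% in KO, while the density of its H3K27ac region did not pass (log2 change 0.07, edgeR adjusted p = 0.38). The chr19 stretch had 26.2%, 14.8% and 27.05% against 46.7%, 75.4% and 50.0%. The Sorcs2 stretch had 29.1%, 26.0% and 51.97% against 61.4%, 86.6% and 64.6%, Gsx2 62.2%, 59.5% and 69.7% against 74.1%, 83.2% and 70.8%, and the Col13a1 stretch 38.9%, 20.4% and 39.8% against 69.9%, 87.6% and 72.6%. All 5 had every KO library above every WT library, beside 12.6% of domains (107 of 848), 41 of the 227 domains without a gene start that had a call, and 7.88% of stretches of every width outside the segments. H3K4me3 at Zdbf2 overlapped between the groups, at 6.8%, 6.6% and 6.3% in WT and 5.6%, 7.0% and 7.2% in KO.

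Values of the other domains of the widest 10 follow. Nkx1-1, an NK homeobox factor, had H3K27me3 at 95.5, 103.5 and 102.8 reads per kb in WT and 98.4, 106.4 and 98.0 in KO, with overlap. Lmx1b had H3K4me1 at 83.6%, 88.3% and 87.3% in WT and 77.6%, 73.3% and 76.0% in KO, without overlap, and H3K27ac at 43.8%, 45.3% and 56.6% against 39.0%, 42.2% and 46.9%, with overlap. The Pcdhg domain was nearly free of H3K27ac, at 1.0 to 3.8% in the 6 libraries, and had H3K4me3 at 5.5%, 3.9% and 4.7% in WT and 5.5%, 6.9% and 7.9% in KO. Nfix, in the chr8 segment, where the KO input was higher too, had H3K27ac at 65.3%, 52.5% and 63.8% against 87.8%, 78.2% and 92.5%. The gene-free stretch chr5:120203801-120297200 had H3K27ac at 11.99%, 14.3% and 19.3% against 21.6%, 25.3% and 22.3%, and its H3K4me1 groups met, at 46.5%, 50.1% and 53.7% against 53.7%, 57.4% and 55.0%.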

How the data were processed

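The authors trimmed reads (Trim Galore 0.6.6), aligned those of H3K27me3, H3K4me3 and H3K4me1 to GRCm38 (Bowtie2 2.4.4), and removed low-quality and multi-mapping reads and blacklisted sequence. For H3K27ac and H3K9me3 the aligner is not given in the sources used here. Drosophila spike-in reads of the H3K27me3 libraries were discarded, so no absolute scale was available. For 4 marks the authors deposited epic2 region lists in steps of 200 bp, called per library at a false discovery rate under 0.05, with each region's ChIP and input read counts, its p-value and its false discovery rate. For H3K4me3 the authors deposited MACS2 peaks with a fold enrichment over input and no counts. A read outside a call is not seen, so coverage moves with the calling threshold and with depth. ChIP reads in called autosomal regions ranged over 8860024 to 10870082 (H3K27me3), 22753066 to 28105919 (H3K27ac), 34485130 to 35688997 (H3K4me1) and 8048837 to 11248081 (H3K9me3) per library, and H3K4me3 lists held 21283 to 26109 autosomal peaks.

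Coverage, reads per kb of called sequence and gene annotation were computed with Python 3.11.15, pandas 2.3.3, numpy 2.4.6 and SciPy 1.17.1, and figures with matplotlib 3.10.9. Regions of the 6 lists of a mark were merged, those called in all 6 were fitted with edgeR 4.0.16 in R 4.3.3 (TMM scaling, the length called per library as offset, quasi-likelihood test, Benjamini-Hochberg adjustment over all regions of the mark), and regions lying to 50% or more in a domain were read out. The method was tested on simulated data. DESeq2 1.42.0 was an alternative. Whether replicates are biological is stated by the study's methods (3 clones per genotype), and p-values measure the spread between these libraries. Replicate numbers did not pair the libraries: same-numbered WT and KO libraries correlated at −0.017 to 0.028 in their deviations from the group means, over 12 pairs.

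Domains named are the 10 widest, the 5 that kept least and the 5 that reached furthest beyond their edges, the 3 narrowest and the 3 widest stretches just outside. Regions named are, per mark, the 3 higher and the 3 lower with the smallest adjusted p outside the segments, the smallest in a segment, and the 3 domains with the most H3K4me3 gained and the 3 with the most lost. 1 of the latter 3 is not reported here. Other regions in these domains were added beside them after their values were seen. The domains and gene lists were chosen with earlier results of these data known. Score columns, log2 fold changes of ChIP over input and −log10 values of the deposited lists were not used.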

Additional observations from a re-analysis of the deposited data

How the results depend on the processing

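The number of domains, 1053, became 527 with bases in 3 of 3 WT lists, 1705 with stretches within 1 kb joined, 348 at 30 kb or more, and 572 to 748 when a WT replicate was left out. Bases kept in the KO consensus, 95.1%, were 95.6%, 93.4% and 95.8% under the first 3 of these, 95.9% without the segments and 90.5 to 90.8% without a KO replicate. Sequence beyond the edges, 3.94 Mb, was 1.75, 8.12 and 1.68 Mb, 3.07 Mb without the segments and 1.79 to 2.12 Mb without a KO replicate. In these 3 results, leaving out a replicate kept the need for a call in 2 lists. Bases then had to be called in 2 of 2 lists, a stricter rule than 2 of 3, so the falls mix the rule with the replicate. H3K27me3 regions past the test (75) numbered 45 without the segments, 303 of 554 with only regions of like length (34.96% of all 1982 such regions) and 43 to 125 without a replicate, the 125 (29 higher and 96 lower) being without WT replicate 1. H3K4me1 regions (130) numbered 70 without the segments, 228 of 385 of like length, 44 higher and 184 lower (43.5% of all such regions), and 92 to 99 without a replicate (50 higher and 42 lower without KO replicate 3). H3K27ac regions (38) numbered 130 of 986 when an overlap of 1 bp sufficed, 81 without TMM scaling and 22 to 29 without a replicate. Of like length they were 38 of 55, 6 higher and 32 lower, against 52.9% of all such regions (26.5% higher and 26.5% lower). H3K9me3 (1) gave 4 with 1 bp overlap, 2 without TMM scaling, 3 with DESeq2 and 0 to 2 without a replicate (2 without KO replicate 2). With a replicate block the counts were 75, 28, 112 and 1 for H3K27me3, H3K27ac, H3K4me1 and H3K9me3, and the Grb10 region was lost (adjusted p = 0.063). The H3K27ac coverage difference of 2.32 points was 0.80 without the segments. Of 256 values for 22 named regions 248 kept direction and side of the threshold, 8, at Grb10 and Fam83h, fell short of it and 0 turned. Of 170 values for 34 named domains 79 moved by more than the spread between replicates, and of 164 values for the summary results 123 kept direction and side of the threshold, or stayed within the spread or within 1.5 times a count. The causes were not tested. Depth limits the calls, since reads outside called regions are not seen.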

Other observations

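Several of the domains with differing H3K27me3 density held imprinted genes, so a list of 47 imprinted genes was drawn up after these values had been seen, and it supports nothing on its own. Of them 14 had their 5′ end in 13 domains. In the fit, which is a description for this mark, the H3K27me3 region lay under an adjusted p of 0.05 (edgeR, Benjamini-Hochberg) and higher in KO for 5 of the 13 domains, of which Cdkn1c and Phlda2 share 1 region, and lower for 3, of which Dlk1 and Dio3 lie in the chr12 segment and Zdbf2 outside. For 5 it was neither. Over all 18523 regions 1.7% were higher and 1.03% lower.

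The 5 higher domains were neighbours on distal chromosome 7. Kcnq1, a potassium channel gene, went from 68.4 to 87.0 reads per kb at its 5′ end (chr7:143086601-143114600), Cdkn1c from 75.6 to 112, Phlda2, which shares a fitted region with Cdkn1c, from 51.5 to 92.5, and Osbpl5 from 56.7 to 74.2 (chr7:143748601-143769600). Igf2, a growth factor gene further up the chromosome, lay in a region with a log2 change of 0.37, while the domain itself had 94.9 reads per kb in WT and 83.8 in KO, the other direction, the fitted region being wider than the domain. Ascl2, between them, had a log2 change of 0.14. The other 4 that were neither higher nor lower were Sfmbt2 with −0.10, Klf14 with −0.16, Rasgrf1 with 0.01 and Grb10 with 0.20.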
